A study of Mus musculus with 2 samples.

Results

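Corneal crystallins are ordinary metabolic enzymes that the corneal epithelium holds in large amounts, far beyond what their reactions would need, and that are thought to help keep the tissue clear and protected from ultraviolet light. 4 such enzyme genes are described here, chosen by name among the 31053 genes of the count table: Aldh3a1, Aldh1a1, Tkt and Eno1. ALDH3A1 and ALDH1A1 are aldehyde dehydrogenases, which oxidise the toxic aldehydes that light and lipid peroxidation produce. ALDH3A1 also absorbs ultraviolet light and is the main such protein of the mouse cornea, and ALDH1A1 also makes retinoic acid from retinal. TKT, transketolase, belongs to the non-oxidative arm of the pentose phosphate pathway, and ENO1, alpha-enolase, catalyses a late step of glycolysis and has been used as a marker of basal limbal cells.

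The cells were corneal epithelial cells from the CycB1-GFP genotype, named for a green fluorescent protein tied to Cyclin B1, whose protein builds up in cycling cells before division. The epithelium was released with Dispase, dissociated with trypsin, and sorted for live GFP-positive cells, so that cycling cells were collected and no GFP-negative cells serve as a comparison. Ages, sexes and the number of mice are not given in the labels. There was 1 group of 2 replicates, each made into a 10x Genomics 3′ library, in which each UMI (unique molecular identifier) stands for 1 captured RNA molecule. Barcode endings separated the libraries but were not tied to the replicate numbers, so they are called library 1 and library 2. Nothing says whether they came from separate mice. The p-values of the main tests therefore reflect only how alike the differences within each library were, with a spread estimate partly shared across genes. They do not measure a spread between mice.

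Of 6752 barcodes, 6188 cells (3187 and 3001) were kept, with at least 500 genes and under 20% mitochondrial UMIs and median depths of 5571 and 5886 UMIs. The libraries shared 5 barcode sequences. Cells were classed by Krt12, the keratin of differentiated corneal epithelium, and Krt15, a keratin of limbal and conjunctival basal cells, as Krt12 UMIs divided by the sum of both (at least 5 UMIs). Under 0.4 were 663 and 959 Krt15-dominant cells, from 0.4 to 0.8 were 161 and 164 mixed cells, and above 0.8 were 2304 and 1821 Krt12-dominant cells. The Krt15-dominant share of the kept cells was 20.8% and 32.0%, and 59 and 57 cells were not classed. Conjunctival markers (Krt4, Krt13, Krt19, Muc4) summed to 935 and 1657 CPM (UMIs out of 1000000 UMIs) in Krt15-dominant cells against 118 and 123 CPM in Krt12-dominant cells, so the Krt15-dominant class holds conjunctival RNA. Limbal or Krt15-type markers (Krt15, Gpha2, Ifitm3, Cd63) summed to 8865 and 12379 CPM there. Krt15, which defines the class, alone gave 6842 and 9948 CPM of this, so the sum is no independent sign of limbal cells. Of the 3 goblet cell markers, Muc5ac and Tff1 were at 0 in every class, and the sum, all from Agr2, was 57.4 and 78.9 against 3.68 and 6.15 CPM. The summed keratocyte, melanocyte, endothelial and lens markers stayed at or under 7.53 CPM in every class and library. Immune markers summed to 2.22 and 38.5 CPM in Krt15-dominant cells and to 0.578 and 3.03 CPM in Krt12-dominant cells. The part of the conjunctival, goblet and immune RNA in the results below was not tested.

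The gene positions are given on GRCm38 with GENCODE M21 and all 4 lie on the plus strand. Aldh3a1 (ENSMUSG00000019102) lies at chr11:61207537-61218421, Aldh1a1 (ENSMUSG00000053279) at chr19:20492715-20643465, Tkt (ENSMUSG00000021957) at chr14:30548359-30574720 and Eno1 (ENSMUSG00000063524) at chr4:150236721-150248879. Aldh1a1 overlaps C730002L08Rik on the opposite strand, which had 0 UMIs. Because 3′ reads have to be told apart near the transcript end, windows of 90 bases were taken from the last 500 bases of each protein-coding transcript of the 4 genes. They were compared with the transcripts of the other genes in the count table, and genes outside it were not searched. None of the windows of Aldh3a1 and Tkt occurred in another counted gene, and 0.727% of those of Aldh1a1 occurred in Aldh1a7. In contrast, 60.25% of the Eno1 windows (808 of 1341) also occurred in Eno1b, a near-identical copy, which itself was counted at 5.81 and 3.54 CPM in kept cells. Eno1 values are therefore uncertain to the extent that shared reads were assigned to the copy or dropped.

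RefSeq promoter sequences (GRCm38.p6) were matched for 3 of the 4 genes, Tkt, Aldh1a1 and Eno1. They are shown because these 3 genes, which follow the Krt12 share to different degrees below, can be read side by side. Each stretch runs 5′ to 3′ on the plus strand and holds no base annotated as untranslated region. By the GENCODE positions above, the printed Tkt and Aldh1a1 stretches lie inside the gene, and only the Eno1 stretch lies before the gene start. Capitals mark 5 short motifs on either strand: GCGTG (the aryl hydrocarbon receptor core), TGACTCA (AP-1), GGGTG (a Klf-type core), GGGCGG (the Sp-type GC box) and TGANNNNGC (the antioxidant element core). The stretches are chr14:30548881-30549130 for Tkt, chr19:20601718-20601960 for Aldh1a1 and chr4:150236458-150236707 for Eno1.
Tkt: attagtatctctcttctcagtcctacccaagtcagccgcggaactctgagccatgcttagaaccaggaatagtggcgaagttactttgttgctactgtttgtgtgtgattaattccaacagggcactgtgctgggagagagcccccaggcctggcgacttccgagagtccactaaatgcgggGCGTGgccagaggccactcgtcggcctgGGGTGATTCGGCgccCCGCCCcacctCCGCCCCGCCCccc
Aldh1a1: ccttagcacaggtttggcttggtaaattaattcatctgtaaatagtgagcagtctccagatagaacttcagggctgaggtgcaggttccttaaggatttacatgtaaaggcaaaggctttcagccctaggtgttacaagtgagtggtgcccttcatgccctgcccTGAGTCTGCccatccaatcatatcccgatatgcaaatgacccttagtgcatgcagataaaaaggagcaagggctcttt
Eno1: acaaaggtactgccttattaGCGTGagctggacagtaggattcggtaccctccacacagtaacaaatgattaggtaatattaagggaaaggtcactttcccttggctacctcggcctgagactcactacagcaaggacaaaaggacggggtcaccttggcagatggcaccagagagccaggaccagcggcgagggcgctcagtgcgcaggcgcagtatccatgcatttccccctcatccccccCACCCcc
The Tkt stretch held 3 GC boxes, all on the minus strand and 2 of them sharing a base, and 1 match to GCGTG. Its match to the Klf-type core and its match to the antioxidant element core overlap. Of all 32851 RefSeq windows cut to the same length, 32.7% held a GC box, 28.2% GCGTG, 52.0% GGGTG, 35.2% TGANNNNGC and 4.46% TGACTCA. The Aldh1a1 stretch, of 243 bases, held 1 match to TGANNNNGC, which 34.25% of all windows of that length hold, and none to the other motifs. The Eno1 stretch held 1 match each to GCGTG and GGGTG. G and C made up 59.6% of the Tkt, 46.1% of the Aldh1a1 and 55.6% of the Eno1 stretch. A second RefSeq stretch of Aldh1a1, at chr19:20492333-20492582, lies before the GENCODE gene start. It held 1 match to TGACTCA and 2 to TGANNNNGC and is not printed.

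The levels of the 4 genes in the sorted cells differed widely. Levels are in CPM of the same cells, with exact Poisson intervals (95%) that cover counting error only, and since each molecule was counted once at its 3′ end they were not divided by gene length. Over all kept cells, Aldh3a1 stood at 5834 CPM (5800 to 5869) in library 1 and 7697 CPM (7657 to 7738) in library 2. Tkt stood at 4846 and 6002 CPM, Eno1 at 212 and 159 CPM, and Aldh1a1 at 42.7 and 94.2 CPM. Thus Aldh3a1 ranked at 10 of 17011 and 6 of 16507 genes with a UMI, and Tkt at 21 and 11, whereas Eno1 ranked at 631 and 896 and Aldh1a1 at 3278 and 1579. Aldh3a1, Tkt and Aldh1a1 were higher in library 2 and Eno1 in library 1, each beyond counting error, with no replicate of either library to test it. Together the 4 genes made up 1.09% and 1.40% of all UMIs, of which Aldh3a1 gave 53.4% and 55.2% and Tkt 44.3% and 43.0%.

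The first comparison asked how the 4 genes differ between cells dominated by the corneal keratin and cells dominated by the limbal and conjunctival one. Fitted levels in Krt12-dominant cells were 13.6-fold higher for Aldh3a1, 8.94-fold for Tkt and 2.39-fold for Aldh1a1, and Eno1 did not pass the test. The UMIs of each class in each library were added up, and edgeR's quasi-likelihood test was run on these sums over 11138 genes, with library as a block and a threshold of 0.05 on the Benjamini-Hochberg adjusted p. 3 of the 4 genes were called higher and 0 lower, against 15.6% of all genes tested called higher and 16.9% called lower (32.5% either way). All 4 passed the filter on low counts. Each ± below is a standard error (SE) of the fit, the size of the log2 difference divided by the square root of the test's F statistic. It is not a spread measured directly between the 2 libraries.

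Aldh3a1 stood at 676 CPM (649 to 703) and 669 CPM (647 to 692) in Krt15-dominant cells. In mixed cells it was 3264 and 5427 CPM, and in Krt12-dominant cells 7443 (7398 to 7489) and 11027 CPM (10966 to 11087). The classes did not overlap between libraries, and the libraries were alike in Krt15-dominant cells and far apart in the other classes. The Krt12-dominant cells were 13.6-fold above the Krt15-dominant ones, a log2 fold change of 3.77 ± 0.28 (SE, 2 libraries; adjusted p = 0.0137), with 3.46 in library 1 and 4.04 in library 2. In Krt12-dominant cells it ranked at 7 and 4 of all genes, and in Krt15-dominant cells at 197 and 199.

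Tkt followed the same order. It stood at 887 and 740 CPM in Krt15-dominant, 2689 and 4089 CPM in mixed and 6095 and 8510 CPM in Krt12-dominant cells. Library 1 was the higher one in Krt15-dominant cells and the lower one in the other classes. The difference was 8.94-fold (log2 3.16 ± 0.33, SE, 2 libraries; adjusted p = 0.0269), with 2.78 and 3.52 in the single libraries. Without the filter on low counts the adjusted p was 0.0528, just past the threshold. In Krt15-dominant cells Tkt exceeded Aldh3a1, giving 50.1% and 45.9% of the UMIs of the 4 genes against 38.2% and 41.5%, and in Krt12-dominant cells Aldh3a1 exceeded Tkt, with 53.9% and 55.6% against 44.1% and 42.9%.

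Aldh1a1 was scarce in every class. It stood at 23.0 (18.3 to 28.5) and 48.3 CPM (42.4 to 54.7) in Krt15-dominant cells, at 19.5 and 45.2 CPM in mixed cells, and at 50.04 (46.4 to 53.9) and 120 CPM (113 to 126) in Krt12-dominant cells. Library 2 was about as high in its Krt15-dominant cells as library 1 was in its Krt12-dominant cells, so the classes separate within a library and not across libraries. The fold was 2.39 (log2 1.26 ± 0.12, SE, 2 libraries; adjusted p = 1.30e-09), with 1.12 and 1.31 in the single libraries. Without the library block, which ignores that gap, the adjusted p was 0.301.

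Eno1 was nearly level. It stood at 183 (169 to 197) and 155 CPM (145 to 167) in Krt15-dominant, 169 and 135 CPM in mixed and 224 (216 to 232) and 162 CPM (155 to 170) in Krt12-dominant cells. The values of the classes overlapped across libraries. The log2 difference was 0.20 ± 0.09 (SE, 2 libraries; adjusted p = 0.0824), with 0.29 in library 1 and 0.06 in library 2, and it missed the threshold under all 12 alternatives that gave a test.

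**Figure D1:**
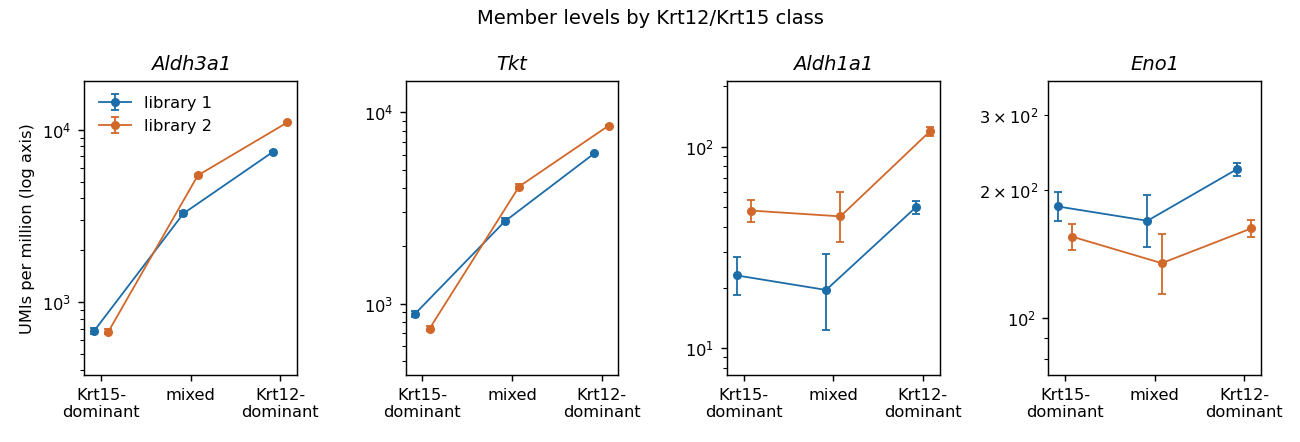
CPM (log axis) of each gene in Krt15-dominant, mixed and Krt12-dominant cells, 1 point per library with exact Poisson intervals of 95%. Aldh3a1 climbs from 676 and 669 to 7443 and 11027 CPM and Tkt alongside it, Aldh1a1 is higher in the Krt12-dominant class alone, and Eno1 stays between 135 and 224 CPM.

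From mixed to Krt12-dominant cells, Aldh1a1 and Eno1 were called higher. Aldh1a1 was 1.40 ± 0.16 (log2, SE; adjusted p = 5.07e-07) higher in Krt12-dominant than in mixed cells and differed by -0.15 ± 0.19 between mixed and Krt15-dominant cells (adjusted p = 0.798). Eno1 was also called higher in Krt12-dominant than in mixed cells, by 0.36 ± 0.10 (adjusted p = 0.0264), where 2.92% of all genes were called higher and 4.14% lower (7.06% either way). The Aldh1a1 call was lost without the library block (adjusted p = 0.593) and after thinning to 2000 UMIs per cell (adjusted p = 0.0508). The Eno1 call was lost with DESeq2 (adjusted p = 0.341), without the block (0.603), after thinning (0.235) and with the Krt15-dominant class in the fit limited to cells without a Krt12 UMI (0.0815). Aldh3a1 differed by 1.12 ± 0.25 (adjusted p = 0.235) and Tkt by 1.14 ± 0.31 (adjusted p = 0.290), larger differences than that of Eno1 but not called by edgeR. Both were called by DESeq2 (adjusted p of 5.33e-09 and 1.62e-07), after thinning (0.0176 and 0.00154) and with that limited class (2.02e-11 and 0.0474), and Aldh3a1 also with cuts at 0.2 and 0.9 (0.0142).

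Aldh3a1 and Tkt lay 2.64 ± 0.27 and 2.02 ± 0.32 above the Krt15-dominant level in mixed cells, but with adjusted p of 0.0931 and 0.174 none of the 4 genes was called there by edgeR, where 2.95% of all genes were called higher and 2.60% lower (5.56% either way). At an unadjusted p under 0.05 there were 2, Aldh3a1 and Tkt, beside 1834 of all 11138 genes tested. DESeq2 called both, with adjusted p of 2.47e-50 and 1.23e-23, and without the library block both had an adjusted p of 0.0215. They were also called after thinning (6.61e-04 for Aldh3a1 and 5.32e-05 for Tkt) and against Krt15-dominant cells without a Krt12 UMI (3.98e-22 and 0.00607), and Aldh3a1 with cuts at 0.2 and 0.9 (4.50e-04). The setting without a Krt12 UMI was not planned, and its choice of cells itself widens the difference. Of the mixed cells, 17 of 161 and 41 of 164 were among the 3% of cells with the highest doublet scores, and with these cells left out Aldh3a1 lay 2.65 above the Krt15-dominant level (adjusted p = 0.105).

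The cuts on the Krt12 share fell within a gradient. In library 1, Aldh3a1 stood at 1699 CPM in cells with a share of 0.3 to 0.4 and at 2590 CPM from 0.4 to 0.5, and in library 2 at 3085 and 3662 CPM. Across the upper cut it went from 4124 (0.7 to 0.8) to 5479 CPM (0.8 to 0.9) and from 6305 to 8124 CPM. Few cells lay there, as 36 and 29 cells were within 0.05 of the lower cut and 73 and 78 of the upper one.

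Along the whole Krt12 share the same pattern was seen in finer steps. Because 49.0% and 42.7% of the classed cells had a share of 1, the planned 10 equal bins merged into 6 per library. In library 1, Aldh3a1 went from 383 CPM in the lowest bin through 811, 3866, 6372 and 7331 to 7922 CPM in the highest. In library 2 it was 515, 509 and 575 CPM in the first 3 bins and then 5276, 9587 and 11465 CPM. The level thus stayed near its floor while the Krt12 share was below 0.182 in library 2, and rose steeply where both keratins were present. Tkt went through the same steps, from 644 to 6562 CPM in library 1 and from 602 to 9028 CPM in library 2.

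Aldh1a1 changed late along this axis. In library 2 it lay between 45.9 and 51.8 CPM in the first 4 bins and reached 92.6 and 127.5 CPM in the last ones. In library 1 it went from 28.4 and 18.4 CPM in the lowest bins to 55.0 CPM in the highest. Eno1 showed no common course, at 166, 200, 174, 237, 225 and 224 CPM in library 1 and 174, 155, 149, 129, 143 and 168 CPM in library 2.

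**Figure D2:**
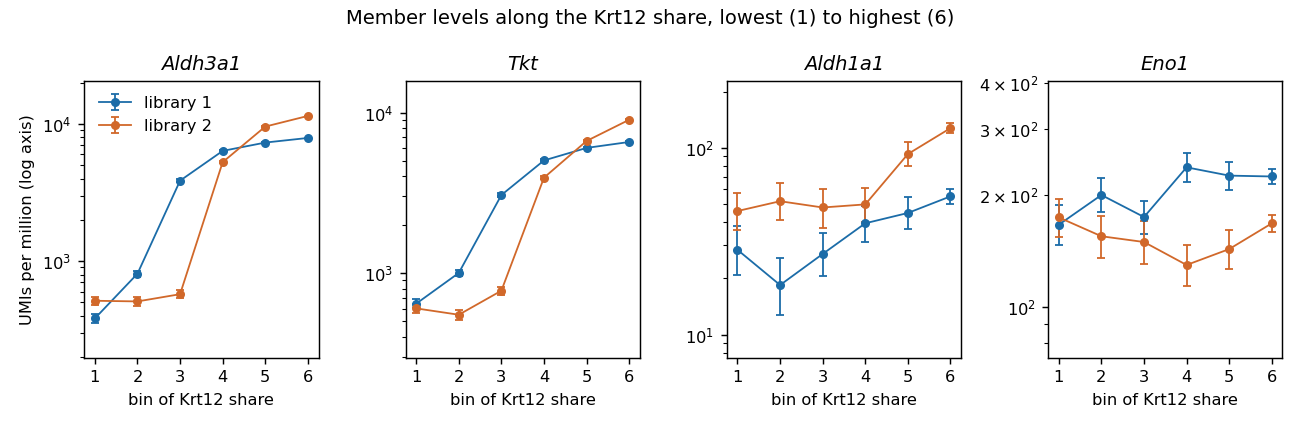
CPM (log axis) of each gene in 6 bins of the Krt12 share per library, from lowest (1) to highest (6), with exact Poisson intervals of 95%; the bins hold different share ranges in each library. Aldh3a1 and Tkt rise steeply from bin 2 in library 1 and from bin 3 in library 2, while Eno1 has no common slope.

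Over these 12 library-bin sums, the genes most like each member were found by Pearson's r of log2(CPM + 1) centred within library, among 5832 genes of at least 20 CPM. These values describe sums that share libraries and a sorted axis, and carry no test. Most like Aldh3a1 were Aqp5, a water channel of corneal epithelium (r = 0.998), Tkt (0.996), Fam129a, Cpd and Lypd2 (each 0.995). Most like Tkt were Sfr1 (0.998), Dapl1 and Cd164 (each 0.997), Erich5 and Aldh3a1 (each 0.996). For Aldh1a1 they were Cavin3 (0.961), Reep5 (0.955), Apip (0.945), Vps26a (0.941) and Ppp1r14b (0.939), and for Eno1 Tmsb10 (0.907), Vdac3 (0.890), Sem1 (0.857), Myof (0.847) and Cope (0.846). Between members, r was 0.785 for Aldh3a1 with Aldh1a1, 0.815 for Tkt with Aldh1a1 and 0.238 for Eno1 with either of the 2 abundant ones. With Krt12 itself, r of Aldh3a1 was 0.849. This cannot be set beside the other values, because the bins were cut on the Krt12 share and the lowest bin of library 2 held 0 Krt12 UMIs.

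RNA released from broken cells enters every droplet, and Aldh3a1 and Tkt are so abundant that such free RNA could supply part of their UMIs in Krt15-dominant cells. Per Krt12 UMI, Krt15-dominant cells held 0.980 and 1.53 Aldh3a1 UMIs, against 0.516 and 0.596 in Krt12-dominant cells. For Tkt the ratios were 1.29 and 1.69 against 0.423 and 0.460. Because the Krt15-dominant class was chosen for few Krt12 UMIs, the class rule itself raises these ratios, and nothing is read from them about free RNA. Its part in these UMIs was not tested.

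The 5 and 17 immune-like cells, which should lack Aldh3a1, give a level to set beside this. They were taken as cells with at least 3 UMIs of immune markers other than Cd74 and under 1% of UMIs from Krt5 and Krt14, a definition set after the data were seen because Cd74 alone also took in Krt15-dominant epithelial cells. In their 48430 UMIs, Aldh3a1 stood at 310 CPM (173 to 511), Tkt at 537 CPM (351 to 787) and Krt12 at 640 CPM, of whose 31 UMIs a single cell held 17. Aldh1a1 had 0 UMIs, which allows up to 76.2 CPM by the exact interval, and Eno1 stood at 206 CPM (99.0 to 380). These values pool both libraries, and library 1 gave 1 of the 15 Aldh3a1 and 4 of the 26 Tkt UMIs. Within each library, the Krt15-dominant level of Aldh3a1 was above the immune-like interval (2.22 to 488 CPM and 207 to 635 CPM). That of Tkt was within it in both (95.5 to 897 CPM and 372 to 899.9 CPM). Tkt and Eno1 are expressed by many cell types, so immune cells are no blank for them. Immune-like cells were also shallow, with a median of 2341 and 1813 UMIs against 5002 and 5096 in Krt15-dominant cells, and per cell they held 0.682 Aldh3a1 UMIs against 3.58.

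Among Krt15-dominant cells, Aldh3a1 and Tkt were highest in those with 3 or more Krt12 UMIs. Cells without a Krt12 UMI (169 and 351) had 380 (337 to 427) and 515 CPM (481 to 550) of Aldh3a1, and cells with 3 or more (229 and 171) had 995 and 1262 CPM. For Tkt these values were 666 and 602 CPM against 1112 and 1217 CPM. With 1 or 2 Krt12 UMIs, Aldh3a1 stood at 487 and 496 CPM and Tkt at 761 and 611 CPM. In library 2 these levels were thus near those without a Krt12 UMI. Cells with 3 or more were also deeper, with a median of 6114 and 5818 UMIs. Without a Krt12 UMI, the CPM of Aldh3a1 was within the immune-like interval of the same library in both libraries. Tkt was also within that interval, which for Tkt is no background level. Per cell, those without a Krt12 UMI held a mean of 1.70 and 2.43 Aldh3a1 UMIs, against 0.2 and 0.824 in immune-like cells. Their median depth was 4320 and 4682 UMIs, against 2341 and 1813 in immune-like cells, so CPM and counts per cell give different pictures. The part of background in these UMIs was not tested. Aldh1a1 stood at 31.7 and 45.9 CPM without and 21.4 and 52.0 CPM with 3 or more Krt12 UMIs, and Eno1 at 164 and 174 against 197 and 135 CPM, so neither gene had a common direction. Against Krt15-dominant cells without a Krt12 UMI, the Krt12-dominant excess was 4.39 for Aldh3a1 (log2, adjusted p = 1.69e-25), 3.53 for Tkt (adjusted p = 4.63e-04), 1.20 for Aldh1a1 (adjusted p = 1.49e-06) and 0.17 for Eno1 (adjusted p = 0.348). This comparison was not planned. Its reference cells were picked by a gene that goes with Aldh3a1 in this class (r of 0.313 and 0.449 at 2000 UMIs per cell). A larger excess of Aldh3a1 and Tkt is thus built into the choice of cells.

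**Figure D3:**
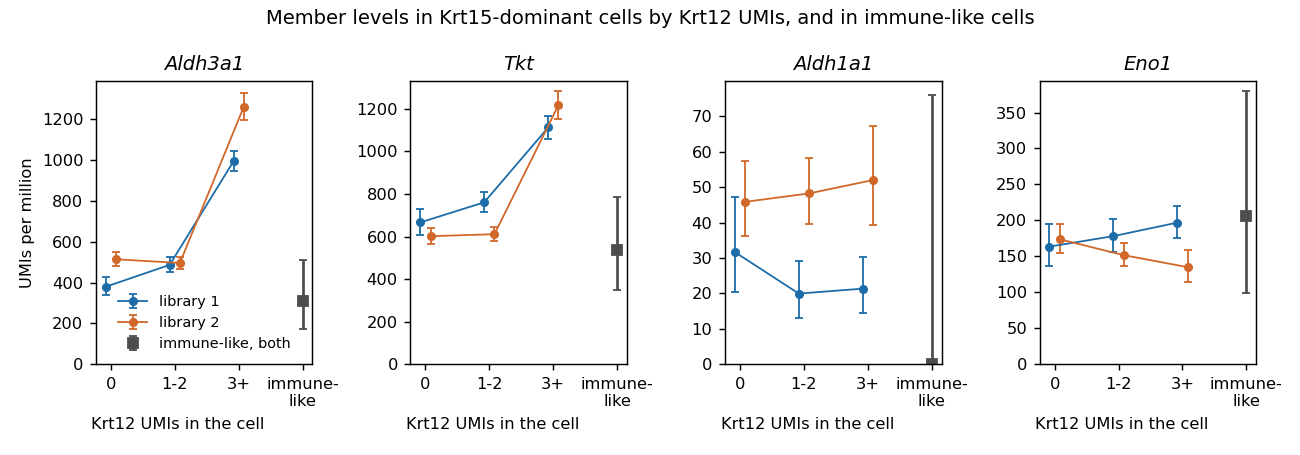
CPM of each gene in Krt15-dominant cells with 0, 1 or 2, and 3 or more Krt12 UMIs per library, and in the 22 immune-like cells of both libraries together (square), with exact Poisson intervals of 95%. Aldh3a1 and Tkt are highest with 3 or more Krt12 UMIs, and their levels without Krt12 lie within or near the pooled immune-like interval.

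Per cell, Aldh3a1 and Tkt were nearly universal in Krt12-dominant cells. With every cell thinned to 2000 UMIs, an Aldh3a1 UMI was found in 99.3% and 100% of Krt12-dominant cells, in 92.4% and 99.3% of mixed cells and in 58.6% (54.6 to 62.4%, exact binomial) and 61.0% (57.7 to 64.2%) of Krt15-dominant cells. Of the 8 immune-like cells deep enough, 3 held one (37.5%, 8.52 to 75.5%). Without thinning, 99.5% and 99.9% of Krt12-dominant and 83.3% and 84.4% of Krt15-dominant cells held one. Tkt was found in 99.4% and 99.5% of thinned Krt12-dominant cells, in 75.5% and 71.5% of Krt15-dominant cells and in 4 of the 8 immune-like cells. Eno1 was found in 33.2% and 27.5% of Krt12-dominant and 26.2% and 25.6% of Krt15-dominant cells, and Aldh1a1 in 9.02% and 20.0% against 4.67% and 10.1%. Thinning left out 21 and 77 Krt15-dominant and 265 and 199 Krt12-dominant cells with fewer UMIs.

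A thinned Krt12-dominant cell held a mean of 15.8 Aldh3a1 UMIs in library 1 and 22.2 in library 2. The central 80% of cells spanned 6 to 26.2 and 13 to 32 UMIs, and the variance divided by the mean was 4.11 and 2.78. Library 1 was thus both lower and more uneven among its cells. For Tkt the means were 12.9 and 16.9 UMIs and the ratios 3.48 and 2.31. Aldh1a1 and Eno1 gave ratios between 1.02 and 1.13, near the value of 1 that sampling alone gives. Their means were at most 0.432 UMIs per cell, and at so low a mean the ratio can lie near 1 even where cells differ. These ratios therefore cannot be set beside those of Aldh3a1 and Tkt, and nothing is read from them about evenness among cells.

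Krt12-dominant cells rich in Aldh3a1 were also rich in Tkt, more so in library 1. Over thinned Krt12-dominant cells, r between the 2 genes was 0.594 in 2039 cells of library 1 and 0.331 in 1622 cells of library 2, given as a description, since the cells share a library. The values depend on depth, and at 4000 UMIs r was 0.712 and 0.468. In Krt15-dominant cells at 2000 UMIs, library 2 had the higher r, with 0.292 in library 1 and 0.409 in library 2. With Krt12, over Krt12-dominant cells at 2000 UMIs, r of Aldh3a1 was 0.355 in library 1 and 0.016 in library 2, and r of Tkt 0.354 and -0.049. Along 5 equal groups by the Krt12 rate within Krt12-dominant cells, Aldh3a1 in library 1 accordingly went from 4585 to 9534 CPM and Tkt from 3725 to 7794 CPM, while Eno1 went from 291 to 161 CPM. In library 2, Aldh3a1 was 9683 in the lowest and 10948 CPM in the highest of these groups, and Eno1 150 and 166 CPM. These groups were added after the data were seen.

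The second comparison asked whether the genes follow the cell cycle within Krt12-dominant cells. Cells with at least 10 UMIs of the phase lists were split into 3 equal groups per library by the G2/M part of those UMIs, and S-rich cells were tested against G2/M-rich cells. The 2 abundant genes did not pass the test. Aldh3a1 stood at 6915 and 11393 CPM in S-rich and 8358 and 10854 CPM in G2/M-rich cells (log2 -0.02 ± 0.07, SE; adjusted p = 0.881). Tkt stood at 5678 and 8580 against 6822 and 8554 CPM (-0.05 ± 0.05; adjusted p = 0.545). In library 1 both were lower in S-rich cells, and in library 2 both differed little.

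Eno1 was called higher and Aldh1a1 lower in S-rich cells, where 15.2% of all genes were called higher and 12.5% lower (27.7% either way). Eno1 stood at 247 (232 to 262) and 161 CPM in S-rich and 182 (169 to 195) and 167 CPM in G2/M-rich cells. Its fitted log2 difference of 0.30 ± 0.10 (adjusted p = 0.0277) came from library 1 (0.44), and library 2 alone gave -0.05. Aldh1a1 stood at 41.0 and 115 CPM in S-rich and 71.6 and 132 CPM in G2/M-rich cells, a difference of -0.37 ± 0.13 (adjusted p = 0.0403), with -0.80 in library 1 and -0.20 in library 2. Neither call remained with DESeq2, where the adjusted p was 0.240 for Eno1 and 0.203 for Aldh1a1, without the library block or after thinning.

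The third set of comparisons asked whether the genes shift with 5 RNA states of Krt12-dominant cells, each taken as the 20% of cells per library with the highest rate of a fixed gene list against the other cells. Surface differentiation RNA (Krtdap, Sprr1a, Dsg1a and others) marks cells leaving the basal layer. In cells rich in it, 3 of the 4 genes were called lower, where 6.81% of all genes were called lower and 9.96% higher (16.8% either way). Aldh3a1 stood at 6063 and 9800 CPM against 7796 and 11354 CPM (log2 -0.25 ± 0.08; adjusted p = 0.0310). Tkt stood at 4566 and 7490 against 6485 and 8781 CPM (-0.33 ± 0.08; adjusted p = 0.00625), and Aldh1a1 at 35.2 and 100.0 against 53.8 and 125 CPM (-0.40 ± 0.11; adjusted p = 0.0115). All were lower in both libraries. Eno1 differed by 0.01 ± 0.08 (adjusted p = 0.948). None of these calls remained with DESeq2 (adjusted p 0.276, 0.0789 and 0.523) or without the library block.

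Krt16 and alarmin RNA (Krt16, Krt6a, S100a8, S100a9 and others) rises in stressed or wounded epithelium. Cells rich in it had the lowest levels of the 2 abundant genes in library 1, with Aldh3a1 at 4473 CPM against 8463 CPM in the other cells and Tkt at 3284 against 7059 CPM. In library 2 the gap was smaller, with 9467 against 11511 CPM and 6705 against 9070 CPM. Aldh1a1 stood at 11.0 against 63.4 CPM in the first and at 82.2 against 131 CPM in the second library. The log2 differences, of -0.53 ± 0.16 for Aldh3a1 (adjusted p = 0.111), -0.70 ± 0.17 for Tkt (adjusted p = 0.0572) and -1.34 ± 0.50 for Aldh1a1 (adjusted p = 0.290), missed the threshold, and so did Eno1 with 0.45 ± 0.18 (adjusted p = 0.199). Of all genes, 5.24% were called, 3.62% higher and 1.62% lower. Without adjustment, 3 of the 4 genes, all but Aldh1a1, had a p under 0.05, as did 2175 of all 11067 genes tested. DESeq2 called none of the 4 genes. After thinning, Aldh3a1, Tkt and Aldh1a1 passed the threshold, with adjusted p of 0.00116, 4.05e-06 and 1.32e-06. The list itself summed to 2903 and 1129 CPM in the Krt12-dominant cells of libraries 1 and 2, and the immediate early list to 7185 and 3264 CPM. The part of these states in the lower Aldh3a1 and Tkt of library 1 was not tested.

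Immediate early, interferon-stimulated and basal adhesion RNA gave 0 calls among the 4 genes with edgeR (0.301%, 1.36% and 2.07% of all genes were called). For interferon-stimulated RNA, 1.30% of all genes were called higher and 0.0638% lower. In cells rich in immediate early RNA, Aldh3a1 stood at 9386 against 7151 CPM in the first and at 11063 against 11017 CPM in the second library (log2 0.21 ± 0.13; adjusted p = 0.637). In cells rich in interferon-stimulated RNA it stood at 8273 against 7275 and 10771 against 11093 CPM (0.09 ± 0.06; adjusted p = 0.734). In cells rich in basal adhesion RNA, such as Col17a1 and Itgb4, it stood at 6155 against 7715 and 11172 against 11000.4 CPM (-0.18 ± 0.07; adjusted p = 0.263). For Aldh1a1 the last state gave -1.03 in library 1 and -0.09 in library 2, a narrower gap than with Krt16 and alarmin RNA. At an unadjusted p under 0.05 there was 1 of the 4 genes for immediate early RNA (Eno1), beside 1014 of all 10955 genes tested. There were 0 for interferon-stimulated RNA, beside 1005 of all 10965. For basal adhesion RNA there were 3 (Aldh3a1, Aldh1a1 and Eno1), beside 1416 of all 11115. DESeq2 called none of the 4 genes in these 3 states.

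**Figure D4:**
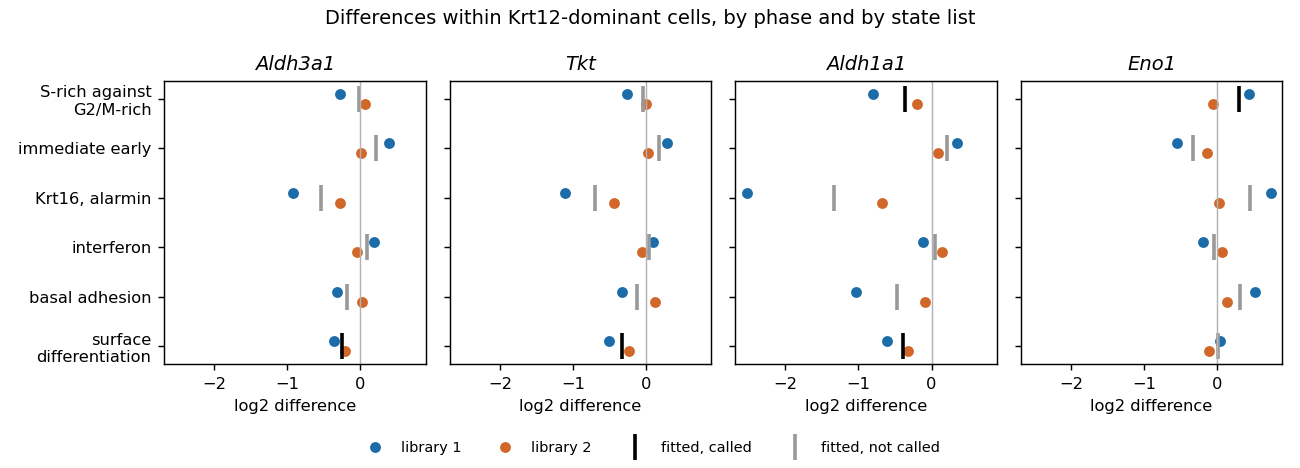
Log2 differences within Krt12-dominant cells for S-rich against G2/M-rich cells and for cells rich in each of 5 state lists against the other cells; points are single libraries and bars the fitted values, black where called. Differences in library 1 were mostly larger, as for Aldh1a1 with Krt16 and alarmin RNA (-2.53 against -0.67), and surface differentiation RNA went with lower Aldh3a1, Tkt and Aldh1a1 in both libraries.

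The 4 genes belong to wider pathways, whose genes were listed by name with earlier results of these data known and were compared between Krt12-dominant and Krt15-dominant cells. The median log2 fold change over all genes tested was 0.01, and each list's counts below stand beside 15.6% of all genes called higher and 16.9% called lower. Of 20 aldehyde dehydrogenase genes, 16 could be tested, 8 were called higher and 1 lower, with a median of 0.28. The 8 include the members Aldh3a1 and Aldh1a1. They also include Aldh1a7, Aldh1l1 and Aldh3b1, which were near the floor with means of 2.50, 2.57 and 1.95 CPM over the sums. Besides the members, Aldh3b2 was higher by 0.99 ± 0.15 (adjusted p = 3.00e-06) and Aldh1a3, another retinal dehydrogenase, had a difference of -0.33 ± 0.10 (adjusted p = 0.00956). The level of these genes was far below that of Aldh3a1, with means of 30.9 and 106 CPM over the sums.

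Of 9 pentose phosphate genes, 3 were called higher and 1 lower, with a median of 0.25. Rpia, ribose-5-phosphate isomerase, was higher by 0.50 ± 0.14 (adjusted p = 0.00794), and Taldo1, transaldolase, which works beside transketolase, had a difference of -0.30 ± 0.08 (adjusted p = 0.00578). The fold change of Tkt, 3.16, is the largest of the list.

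The glycolysis genes, among them Eno1, went both ways. Of 18 genes, 17 could be tested, 2 were called higher and 4 lower, and the median was -0.01. Pkm, pyruvate kinase, was higher by 0.25 ± 0.08 (adjusted p = 0.0118). Pfkp had a difference of -1.13 ± 0.20 (adjusted p = 0.00278), Hk2 of -0.95 ± 0.16 (adjusted p = 3.23e-05) and Hk1 of -0.83 ± 0.17 (adjusted p = 5.72e-04), which are phosphofructokinase and hexokinases, enzymes of the early steps. By cell cycle, 11 of the 17 glycolysis genes were called higher in S-rich than in G2/M-rich Krt12-dominant cells and 0 lower, with a median of 0.34 against -0.004 over all genes, where 15.2% of all genes were called higher and 12.5% lower. With DESeq2 the 11 became 7, without the library block 1, and after thinning 8 of 15 tested, as all genes called higher went from 1628 to 641, 378 and 836.

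Genes of retinoid handling, the pathway that ALDH1A1 serves, were more often called lower than higher. Of 16 genes, 11 could be tested, 1 was called higher and 6 lower, with a median of -0.56. Crabp2, a retinoic acid binding protein, had a log2 fold change of -2.89 ± 0.23 (adjusted p = 5.42e-07) and Dhrs3, a retinal reductase, one of -0.56 ± 0.11 (adjusted p = 2.32e-04). The conjunctival markers given above also differ between these classes.

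Of 9 other genes whose products act as crystallins or resemble them, 8 could be tested, 2 were called higher and 1 lower. Prdx6, a peroxiredoxin that removes lipid peroxides, was higher by 1.47 ± 0.17 (adjusted p = 0.00414) and Cryzl1 by 0.41 ± 0.15 (adjusted p = 0.0400). Of 11 regulator genes, 2 were called higher and 4 lower. Klf4 was higher by 2.03 ± 0.27 (adjusted p = 0.0288) and Pax6, the master regulator of the eye, by 0.39 ± 0.08 (adjusted p = 2.38e-04). Klf5 had a difference of -1.11 ± 0.08 (adjusted p = 6.16e-12), Ahr, the aryl hydrocarbon receptor, of -1.05 ± 0.20 (adjusted p = 0.00165) and Ehf of -0.58 ± 0.08 (adjusted p = 1.06e-06). Over the 6 lists together, 18 genes were called higher and 17 lower, against 11 and 12 with DESeq2 and 6 and 11 without the library block.

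**Figure D5:**
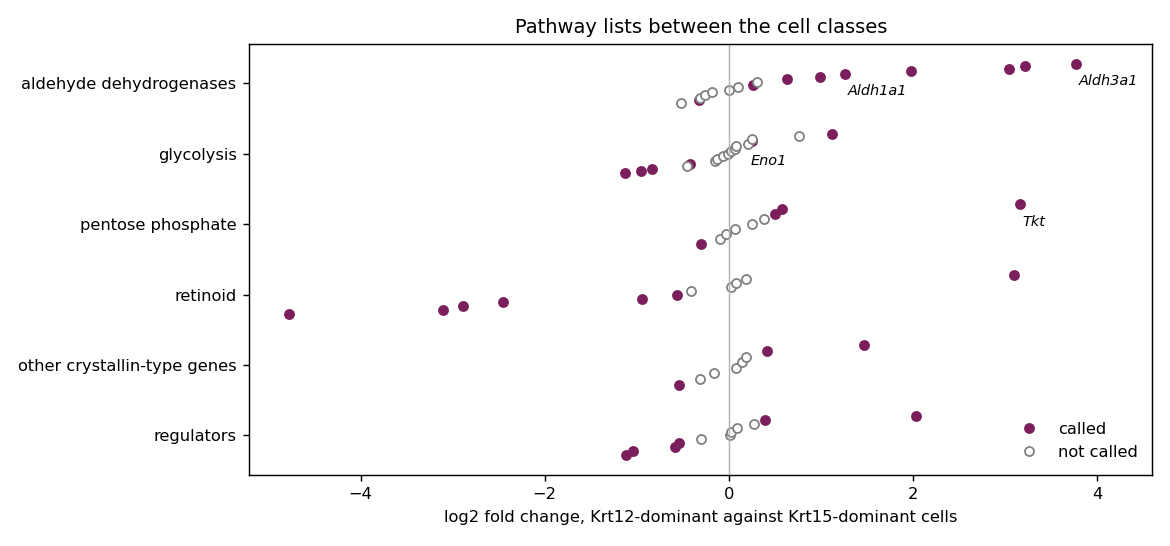
Log2 fold change between Krt12-dominant and Krt15-dominant cells of each tested gene of 6 lists, filled where called by edgeR. Aldh3a1 (3.77) and Tkt (3.16) are the highest of their lists, Eno1 (0.20, not called) lies above the glycolysis median of -0.01, and most called retinoid genes lie below 0.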

How the data were processed

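UMI counts per gene and barcode were measured in 2 libraries of 1 group. Per the file headers, the authors made the deposited counts with 10x Genomics software 3.1.0, and the submitters' processing notes name Cell Ranger 3.1.0, Seurat 5.0.0 and GRCm38/mm10. Whether depth was equalised between libraries is not given in the sources used here. Cells with at least 500 genes and under 20% mitochondrial UMIs were kept (scanpy 1.11.5, numpy 2.4.6). The libraries held 19001107 and 18030874 UMIs. Doublets were not removed, and the 3% of cells with the highest Scrublet scores were left out in an alternative.

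Counts were summed per library and class (6 sums, 2 residual degrees of freedom for class and phase; 4 sums and 1 for states) and tested with edgeR 4.0.16 in R 4.3.3 (TMM, filterByExpr, robust quasi-likelihood, Benjamini-Hochberg threshold 0.05), with library as a block because sums of a library come from 1 sample. Genes that define a class or state were left out of its test. DESeq2 1.42.0, other cuts, filters, thinning and single libraries were alternatives. The alternative with Krt15-dominant cells without a Krt12 UMI was added outside the plan. Likeness used 12 sums in place of the planned 20, because deciles of the share were tied. Intervals (95%; scipy 1.17.1) are exact Poisson or exact binomial and cover counting error only. On simulated counts with a true log2 change of 1 in 200 genes, the class test recovered 84% with 10 false calls among 11032 genes, the phase test 74.5% with 7 and the immediate early test 60.5% with 4. The simulation used a fixed dispersion (spread beyond counting error) of 0.02 and changed only well-counted genes. Its class effects were the same in both libraries, unlike those of Aldh3a1 and Tkt, so these rates need not hold for the real counts.

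The members and lists were chosen with earlier results of these data known. Named were the 4 members and, per pathway list and direction, up to 3 called genes of at least 20 CPM with the same sign in both libraries, by size of change. A gene that this rule names in the retinoid list is not reported here.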

Additional observations from a re-analysis of the deposited data

Results flagged for a closer look

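RNA of all 4 genes was also found in barcodes that the comparisons left out, above the limit that a count of 0 allows. In the 475 barcodes with under 500 genes, Aldh3a1 stood at 3990 CPM, Tkt at 3338 CPM, Eno1 at 67.1 CPM and Aldh1a1 at 53.1 CPM, where 3 counts amount to 8.39 CPM. By library, Aldh3a1 was at 3312 CPM in 254 and 4906 CPM in 221 such barcodes. They held 0.433 and 0.406 Aldh3a1 UMIs per Krt12 UMI, against 0.516 and 0.596 in Krt12-dominant cells. In the 89 barcodes left out for a high mitochondrial share, Aldh3a1 stood at 4270.5 CPM, Tkt at 3615 CPM, Eno1 at 116 CPM and Aldh1a1 at 67.5 CPM, where 3 counts amount to 28.9 CPM. In the 17 of these from library 1, Aldh1a1 had 0 UMIs.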

How the results depend on the processing

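Between Krt12-dominant and Krt15-dominant cells, Aldh3a1 kept its call under all 12 alternatives with a test (log2 3.76 to 4.39), Tkt under 11 and Aldh1a1 under 11, and Eno1 was called under none. One of the 12, with Krt15-dominant cells without a Krt12 UMI, was not planned. It gave the 4.39, and its choice of cells widens the difference, so it is no independent check. Tkt was lost without the filter on low counts (3.17, adjusted p = 0.0528) and Aldh1a1 without the library block (1.25, adjusted p = 0.301). With free RNA subtracted in proportion to Krt12 UMIs, which the class rule keeps low in Krt15-dominant cells, the values were 4.67 for Aldh3a1 and 3.69 for Tkt. Single libraries gave 3.46 to 4.04 for Aldh3a1, 2.78 to 3.52 for Tkt, 1.12 to 1.31 for Aldh1a1 and 0.06 to 0.29 for Eno1. The small Aldh1a1 difference between mixed and Krt15-dominant cells turned to 0.23 with cuts at 0.2 and 0.9, to 0.0031 without the 3% deepest cells and to 0.10 after thinning. All genes called higher fell from 1739 to 768 with DESeq2, 687 without the block and 1041 after thinning, and those called lower from 1883 to 999, 864 and 1185, or to 1242 with Krt15-dominant cells without a Krt12 UMI. Pathway genes called higher went from 18 to 11, 6 and 9, and to 10 with those cells, and genes called lower from 17 to 11 without the block.

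By phase, Aldh3a1 turned to 0.013 without the block and 0.017 after thinning. Aldh1a1 lost its call with DESeq2 (-0.41), without the block (-0.31) and after thinning (-0.24), as did Eno1 (0.28, 0.32 and 0.24). Single libraries gave -0.27 to 0.070 for Aldh3a1, -0.80 to -0.20 for Aldh1a1, -0.26 to 0.0043 for Tkt and -0.051 to 0.44 for Eno1. With surface differentiation RNA, calls were lost for Aldh3a1 with DESeq2 (-0.25), without the block (-0.23), after thinning (-0.26), without the highest doublet scores (-0.23) and in the top 10% (-0.32), for Aldh1a1 with DESeq2 (-0.42), without the block (-0.37) and after thinning (-0.47), and for Tkt with DESeq2 (-0.33) and without the block (-0.30). Single libraries gave -0.36 to -0.21 for Aldh3a1, -0.62 to -0.32 for Aldh1a1, -0.51 to -0.23 for Tkt and -0.11 to 0.045 for Eno1. With Krt16 and alarmin RNA, calls were gained after thinning for Aldh3a1 (-0.55), Aldh1a1 (-1.47) and Tkt (-0.74), and for Tkt without the highest doublet scores (-0.71) and in the top 10% (-0.88). In the top 10% by basal adhesion RNA they were gained for Aldh3a1 (-0.30) and Aldh1a1 (-1.06). With interferon-stimulated RNA, the sign turned for Aldh1a1 (-0.083) and Eno1 (0.031) after thinning and for Tkt in the top 10% (-0.039). The causes were not tested.

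Detection depends on depth. In Krt15-dominant cells thinned to 1000 UMIs or not thinned, the mean was 41.0% or 83.8% for Aldh3a1, 51.9% or 92.3% for Tkt, 14.4% or 52.2% for Eno1 and 2.90% or 15.2% for Aldh1a1. In Krt12-dominant cells it was 98.8% for Aldh3a1 at 1000 UMIs, 98.1% or 99.7% for Tkt, 16.4% or 58.9% for Eno1, and 33.3% for Aldh1a1 without thinning. No paired analysis across groups was possible because there is 1 group, so the library block stands for the pairing of sums within a library. With 2 libraries, leaving 1 out leaves values with no test, and calls over lists were not counted in single libraries.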

Other observations

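Among Krt15-dominant cells, the level of Tkt was lower where the Krt15 rate was higher. From the lowest to the highest of 5 equal groups by that rate, it went from 1071 to 677 CPM in library 1 and from 981 to 625 CPM in library 2. Aldh3a1 had no common course, with 724 and 579 CPM in library 1 and 768 and 777 CPM in library 2 at the ends. Aldh1a1 stood at 12.9 and 25.8 CPM and at 44.2 and 51.5 CPM. Eno1 went from 245 to 161 CPM in library 1 and from 131 to 182 CPM in library 2. These groups were chosen after the data were seen and carry no test.

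In cells rich in surface differentiation RNA, where 3 of the 4 enzyme genes were called lower, 5 of the 11 regulator genes were called higher and 0 lower, with a median log2 difference of 0.15 against -0.01 over all genes tested, of which 9.96% were called higher and 6.81% lower. With DESeq2 the 5 became 3 and without the library block 1, as all genes called higher went from 1098 to 351 and 28. In the same cells, 3 of 9 pentose phosphate genes were called higher and 2 lower, and 1 of 17 glycolysis genes was called higher and 0 lower. In S-rich cells, 3 of 9 pentose phosphate genes were called higher and 0 lower, with a median of 0.14, while Tkt itself was not called. There 15.2% of all genes were called higher and 12.5% lower. With DESeq2 and without the block, none of the pentose phosphate genes was called in either comparison, nor any glycolysis gene in cells rich in surface differentiation RNA.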
